A study of Rattus norvegicus with 9 samples.

Results

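The lungs of postconditioned rats (I-post C group) were compared with the lungs of sham-operated rats (Sham group), gene by gene. The comparison used 6 of the 9 libraries of the study, 3 I-post C and 3 Sham, and covered the 15402 of 22833 genes that had a mean of at least 0.5 FPKM over all 9 libraries. FPKM is a level of fragments scaled for transcript length and for the size of the library. The question was which transcripts still differed from Sham lung when the clamped lung had been postconditioned.

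All rats were male Sprague-Dawley rats of 8 weeks that were fasted overnight, and all received urethane, heparin, mechanical ventilation and a thoracotomy. In the I-post C group the hilum of the left lung was held closed for 30 min, then reopened and clamped again in 3 cycles of 30 s of reperfusion and ischemia, and the lung was reperfused for 2 h. In the IR group the same 30 min clamp was followed directly by 2 h of reperfusion. In the Sham group the hilum was dissected free and never clamped. Each group had 3 libraries of lung tissue. The labels do not state whether each came from a separate rat, so p-values measure the spread between these libraries. The paper describes excision of the left lung for histology and names no side for the RNA. A healthy lung that was never operated on was not among the groups, so surgery and ventilation are shared by every sample.

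Clamping the hilum stops both blood flow and ventilation of the lung, and reopening it brings a burst of oxidants, leakage of the alveolar capillaries and entry of neutrophils. Within the first hours, resident cells switch on early-response transcription factors such as the FOS and NR4A proteins, which need no new protein synthesis, and NF-kB, which drives genes for cytokines and chemokines. Postconditioning interrupts the first minutes of reperfusion and is known for limiting reperfusion injury in several organs.

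Total counts were 45110590 to 51214941 per library, and the mitochondrial genome took 3.03% to 8.20% of them. Sham 3 stood apart from all other libraries on the first principal component, which held 39.3% of the variance, and IR 3 on the second. Alveolar markers were abundant in all libraries, with Sftpc, the surfactant protein C gene, at 15691 to 37521 FPKM. The 8 skeletal muscle markers summed to 4692 FPKM in IR 3, and to between 11.6 and 82.5 FPKM in the other 8 libraries. In unsorted lung tissue, fewer cells of a type and less RNA per cell cannot be told apart.

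No gene passed the test between I-post C and Sham lungs. By edgeR's quasi-likelihood test, 0 genes were higher and 0 lower out of 15402, where a call needed an adjusted p under 0.05 and a 2-fold or larger difference, that is, 1 or more on the log2 scale (log2FC). Log2FC values and their standard errors (SE) are from this fit, which pooled the spread over all 9 libraries. The smallest adjusted p was 0.0838, shared by Depp1, Pfkfb3, Fcrl2 and Tlr2. At an unadjusted p under 0.05 there were 573 genes higher (3.72%) and 492 lower (3.19%). DESeq2 on the same 9 libraries called 111 genes higher (0.745% of those with an adjusted p) and 16 lower (0.107%), DESeq2 on the 6 libraries called 95 (0.621%) and 13 (0.085%), and limma on log2(FPKM + 0.5) called Pfkfb3 alone. Unadjusted, limma had 623 genes higher and 292 lower. For IR against Sham, the same edgeR test called 43 genes higher (0.279%) and 3 lower (0.0195%). That a gene passed in one comparison and not in the other was not taken as a difference between them.

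The 111 genes that DESeq2 called higher on 9 libraries held 7 of 15 listed EGR, NR4A, IER and other early genes, 6 of 16 genes of hyaluronan synthesis and matrix proteases, 5 of 11 AP-1 and ATF3 factors and 5 of 17 glucocorticoid and FOXO targets. Over all genes with an adjusted p, DESeq2 called 0.745% higher. Of its 16 lower calls, 1 was a listed gene, the ribosomal protein gene Rps27a. That was the Rps27a entry on chromosome 14, and the entry of the same symbol on chromosome 5 was among the 111 called higher.

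The plain ranges of the libraries were used beside the tests. All 3 I-post C libraries lay above all 3 Sham libraries for 857 genes (5.56% of genes tested) and below them for 628 (4.08%). Counts of list members with ranges apart are to be read beside these shares of all genes. The median log2FC over all genes was -0.03, and 47.2% of genes had a log2FC above 0. Of the 111 genes that DESeq2 called higher, 104 had ranges apart, and the median of their edgeR log2FC was 2.11. Of the 16 called lower, 14 had ranges apart, with a median of -1.77.

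**Figure D1:**
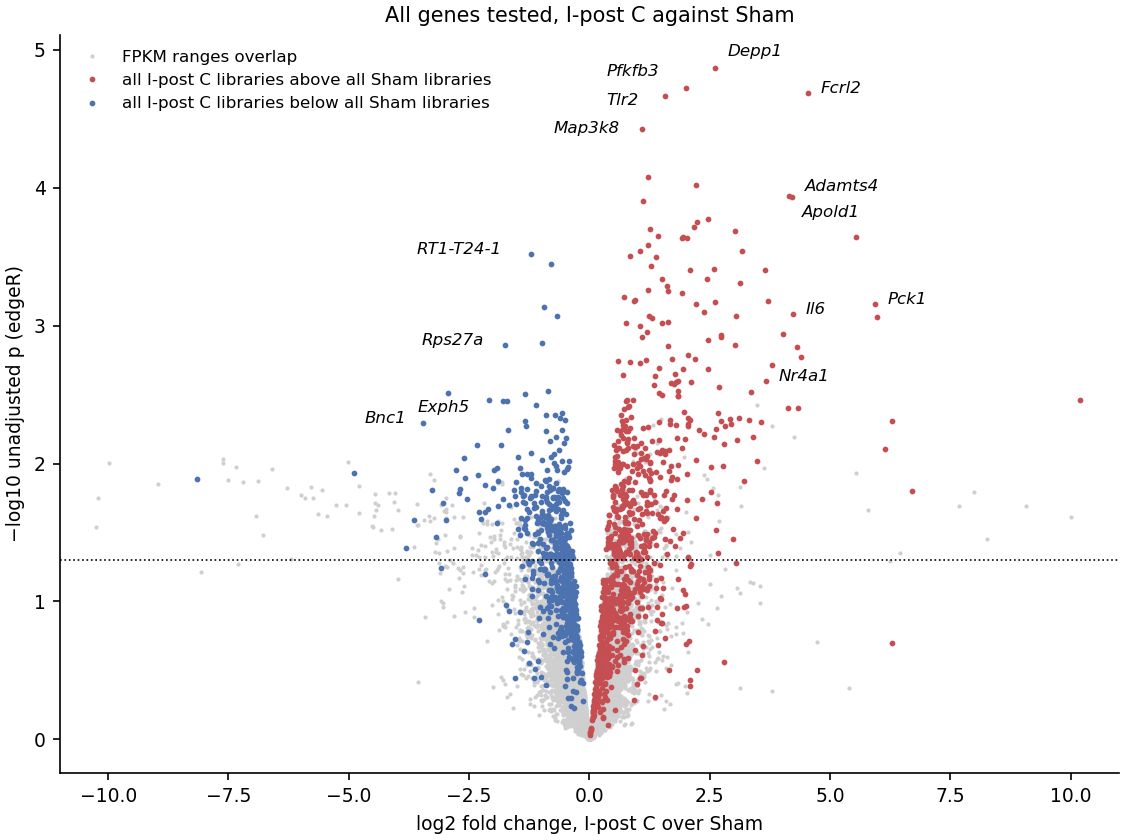
Each point is 1 of the 15402 genes, with the log2 fold change of I-post C over Sham on the x axis and the unadjusted edgeR p on a −log10 scale on the y axis; the dotted line marks p of 0.05. Red points are the 857 genes with every I-post C library above every Sham library, blue points the 628 with every I-post C library below, and the 4 smallest p-values belong to Depp1, Pfkfb3, Fcrl2 and Tlr2.

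The gene with the smallest p was Depp1, which encodes a protein induced by progesterone and by FOXO factors and linked to autophagy (chromosome 4, rn6 positions 148782479 to 148784562, plus strand). It had 149, 117 and 104 FPKM in the I-post C libraries 1 to 3, against 16.2, 17.9 and 23.5 FPKM in the Sham libraries 1 to 3. The log2FC was 2.60 ± 0.32 (SE, edgeR adjusted p = 0.0838). The lowest I-post C library was far above the highest Sham library, and the IR libraries, at 235, 193 and 96.1 FPKM, overlapped the I-post C ones. Pfkfb3, whose product makes fructose 2,6-bisphosphate and so speeds glycolysis, had 113, 81.1 and 71.4 FPKM in I-post C, 73.4, 73.3 and 92.7 FPKM in IR and 21.2, 24.1 and 18.0 FPKM in Sham. Its log2FC over Sham was 2.00 ± 0.25 (SE), and I-post C and IR values covered the same range. Pfkfb3 was the single gene that limma called.

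Fcrl2, an Fc receptor-like gene listed here with the B cell markers, was the only one of the 4 genes with every I-post C library above every IR library. Its level was 2.94, 7.00 and 4.49 FPKM in I-post C, 0.902, 0.273 and 0.770 FPKM in IR and 0.237, 0.156 and 0.185 FPKM in Sham. All 3 I-post C libraries were above all 6 others. The log2FC was 4.54 ± 0.58 (SE) over Sham and 2.73 ± 0.53 (SE) over IR (edgeR adjusted p = 0.0838 and 1). Tlr2, the receptor for bacterial lipoproteins and for molecules released from damaged cells, had 13.1, 15.8 and 12.6 FPKM in I-post C, against 5.81, 4.24 and 3.47 FPKM in Sham, a log2FC of 1.57 ± 0.20 (SE). Its partner Tlr1 had 2.46, 2.24 and 2.21 FPKM in I-post C and 1.37, 1.14 and 0.699 FPKM in Sham, also without overlap.

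The other genes among the 12 with the smallest p, ranges apart upward and a log2FC of 1 or more were Map3k8, Il6r, Arid5a, Apold1, Adamts4, Amigo2, Adamts1 and Rasd1. Amigo2, a cell adhesion gene, had 55.8, 77.1 and 61.6 FPKM in I-post C and 37.1, 26.5 and 22.8 FPKM in Sham. Rasd1, a glucocorticoid-inducible small GTPase, had 8.95, 10.4 and 4.72 FPKM in I-post C and 1.20, 1.52 and 2.03 FPKM in Sham. Their log2FC values were 1.12 ± 0.18 (SE) and 2.23 ± 0.37 (SE, edgeR adjusted p = 0.179 for both). The other 6 are described with their pathways.

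**Figure D2:**
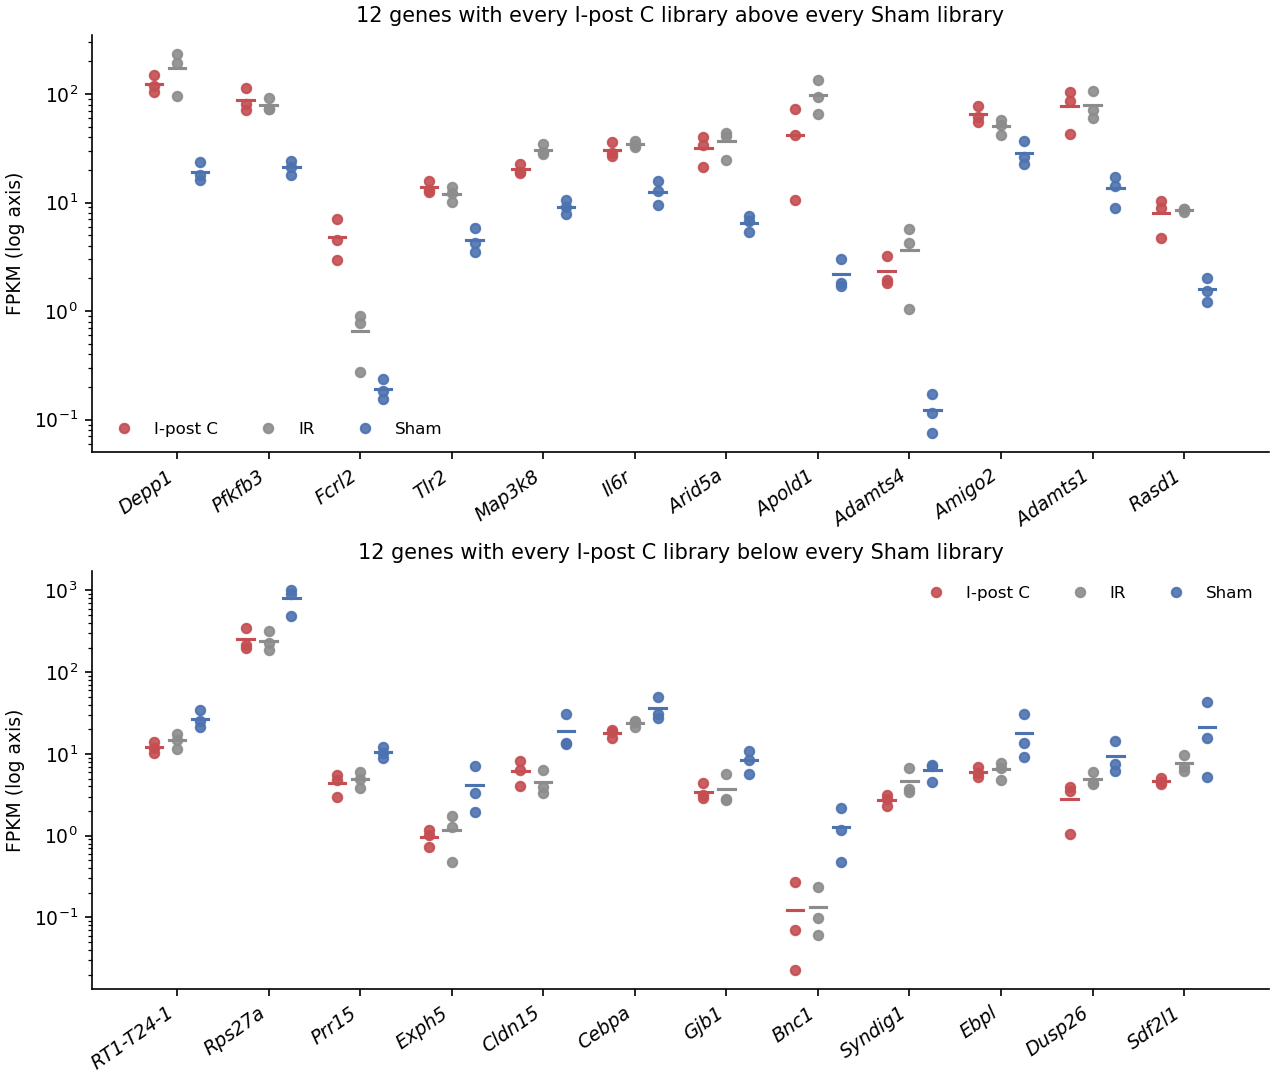
FPKM on a log axis for the 12 genes with every I-post C library above every Sham library (upper panel) and the 12 below (lower panel) that had the smallest p and a log2FC of 1 or more in size; points are libraries, bars are means of 3, in the order I-post C, IR and Sham. In the upper panel the I-post C and IR ranges overlap for all genes but Fcrl2, which lies above IR (0.27 to 0.90 FPKM), and Map3k8, which lies below it.

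Interleukin-6 and many of the genes around it lay above Sham in every I-post C library. Il6 itself, the cytokine, had 16.8, 6.15 and 6.29 FPKM in I-post C, 15.2, 30.4 and 74.2 FPKM in IR and 0.274, 0.959 and 0.194 FPKM in Sham. The I-post C libraries were thus all above Sham, while IR reached further. The log2FC was 4.23 ± 0.87 (SE) over Sham (edgeR adjusted p = 0.255) and -2.24 ± 0.78 (SE) over IR. Il6r, the receptor that binds the cytokine, had 28.5, 35.9 and 26.7 FPKM in I-post C and 15.7, 12.6 and 9.39 FPKM in Sham, a log2FC of 1.22 ± 0.19 (SE, edgeR adjusted p = 0.179). Osm, the related cytokine oncostatin M, had 3.07, 3.26 and 1.95 FPKM in I-post C, against 0.976, 0.817 and 0.768 FPKM in Sham. Its receptor gene Osmr had 5.80, 4.94 and 7.6 FPKM in I-post C, against 3.55, 1.36 and 0.401 FPKM in Sham, again with no overlap. Socs3, the feedback inhibitor that STAT3 induces, had 71.0, 44.3 and 82.3 FPKM in I-post C and 17.0, 11.3 and 16.2 FPKM in Sham, a log2FC of 2.1 ± 0.39 (SE). Of the 16 tested genes of the list of IL-6 family members, receptors and STAT3 targets, 0 passed edgeR in either direction, 4 were called higher by DESeq2 on 9 libraries, 9 had ranges apart upward and 0 downward. The list's median log2FC was 0.92, beside -0.03 for all genes, and 0.64 to 1.33 with any 1 library left out.

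Arid5a and Zc3h12a encode opposing regulators of Il6 mRNA, the first a stabilizer and the second the nuclease Regnase-1. Arid5a had 40.1, 21.1 and 34.1 FPKM in I-post C, against 6.72, 5.33 and 7.58 FPKM in Sham, a log2FC of 2.22 ± 0.34 (SE). Zc3h12a had 24.1, 17.9 and 16.2 FPKM in I-post C, 23.5, 31.8 and 43.3 FPKM in IR and 7.83, 4.39 and 6.19 FPKM in Sham, a log2FC of 1.61 ± 0.31 (SE). Zfp36, which encodes tristetraprolin, a protein that speeds the decay of cytokine mRNAs, had 337, 202 and 125 FPKM in I-post C and 68.6, 58.2 and 77.8 FPKM in Sham. Of the 11 genes of mRNA stability listed, 4 had ranges apart upward and 0 downward, and the median log2FC was 0.32, 0.02 without Sham 3 and 0.78 without Sham 1.

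Chemokines that draw neutrophils and monocytes lay above Sham for 4 genes. Cxcl1, a ligand of the neutrophil receptor CXCR2, had 74.2, 39.0 and 37.2 FPKM in I-post C, 149, 161 and 310 FPKM in IR and 9.71, 8.04 and 22.1 FPKM in Sham. The I-post C libraries were all above Sham and all below IR. The log2FC was 1.82 ± 0.52 (SE) over Sham and -2.22 ± 0.53 (SE) over IR, with edgeR adjusted p of 0.588 and 1. Cxcl2, a second CXCR2 ligand, had 10.6, 7.03 and 1.76 FPKM in I-post C, against 0.735, 0.447 and 0.182 FPKM in Sham. Ccl2 and Ccl7 encode ligands of the monocyte receptor CCR2. Ccl2 had 47.6, 23.4 and 25.7 FPKM in I-post C, 29.5, 53.9 and 260 FPKM in IR and 3.34, 4.48 and 4.23 FPKM in Sham, and Ccl7 had 10.4, 18.4 and 16.6 FPKM in I-post C and 0.862, 1.71 and 0.775 FPKM in Sham. The log2FC of Ccl7 over Sham was 3.66 ± 0.68 (SE, edgeR adjusted p = 0.197). Csf3, the granulocyte colony-stimulating factor gene, was listed at 0 in all 3 Sham libraries and had 0.420, 0 and 0.680 FPKM in I-post C and 1.18, 4.42 and 17.9 FPKM in IR. Cxcl6 overlapped with Sham, at 0.735, 0.558 and 0.865 FPKM in I-post C, 1.35, 2.64 and 11.2 FPKM in IR and 0.661, 0.288 and 0.445 FPKM in Sham. Of the 15 CC chemokines tested, 2 had ranges apart upward (Ccl2 and Ccl7) and 1 downward (Ccl6), and of the 7 neutrophil-attracting chemokines and colony-stimulating factors 2 did (Cxcl1 and Cxcl2). The list medians were 0.34 and 0.59. With any 1 library left out they lay between 0.02 (without Sham 1) and 0.64 (without Sham 2) and between 0.57 and 0.80, and that of the CC chemokines was 0.06 without I-post C 2.

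Part of the promoter is shown for 7 of the genes above Sham, to let the letters before their start sites be compared. The promoters are from RefSeq on the GRCr8 build, with letters 5′ to 3′ on the strand of the gene. The 250 bases before each start site were searched on both strands for a kappa B-like motif, GGGNN followed directly by TTTCC, and for TGACGTCA, the cAMP response element, which do not overlap each other in the promoters shown. Of 85 listed pathway genes with ranges apart upward and an unadjusted p under 0.05, 66 were in the table. The first motif occurred in 7 of them (10.6%) and in 1.28% of the 27457 promoters of distinct symbols, and the second in 5 (7.58%) and in 1.7%. The 66 genes were picked by these same expression values, from lists that include NF-kB, cytokine and early genes. Those lists were written with earlier results known, so the shares beside all promoters are no test of the motifs. A match is a description of these letters, and binding was not measured. Matches are in capitals.
Il6 (chr4:5894576-5894797, minus strand, both motifs): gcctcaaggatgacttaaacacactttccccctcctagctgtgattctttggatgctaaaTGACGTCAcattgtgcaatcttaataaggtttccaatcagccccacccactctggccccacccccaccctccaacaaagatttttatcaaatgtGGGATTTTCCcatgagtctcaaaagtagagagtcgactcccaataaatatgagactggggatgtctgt
Cxcl1 (chr14:17479336-17479483, minus strand): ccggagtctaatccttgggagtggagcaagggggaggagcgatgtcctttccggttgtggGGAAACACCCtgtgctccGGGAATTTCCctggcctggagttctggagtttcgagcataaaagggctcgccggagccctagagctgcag
Cxcl2 (chr14:17467256-17467389, minus strand): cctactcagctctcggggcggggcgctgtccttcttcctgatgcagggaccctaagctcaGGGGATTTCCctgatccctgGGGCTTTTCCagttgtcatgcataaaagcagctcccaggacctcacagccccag
Nfkbia (chr6:78597073-78597163, minus strand): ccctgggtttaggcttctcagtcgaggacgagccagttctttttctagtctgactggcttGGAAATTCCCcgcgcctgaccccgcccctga
Btg2 (chr13:48087824-48087940, minus strand): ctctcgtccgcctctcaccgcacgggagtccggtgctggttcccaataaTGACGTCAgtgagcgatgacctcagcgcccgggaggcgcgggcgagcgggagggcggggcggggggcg
Has1 (chr1:67378460-67378587, minus strand): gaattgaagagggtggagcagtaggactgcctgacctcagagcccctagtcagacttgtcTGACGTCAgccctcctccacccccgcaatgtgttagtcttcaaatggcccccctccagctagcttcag
Dusp1 (chr10:17184669-17184796, plus strand): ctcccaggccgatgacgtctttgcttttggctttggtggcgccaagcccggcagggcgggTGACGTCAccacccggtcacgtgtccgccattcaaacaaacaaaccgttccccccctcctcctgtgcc
The first 4 carry the kappa B-like motif and Il6, Btg2, Has1 and Dusp1 the cAMP response element.

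Both interleukin-1 cytokine genes lay above Sham too. Il1b had 34.6, 36.8 and 24.9 FPKM in I-post C, 31.9, 21.1 and 26.9 FPKM in IR and 14.5, 12.6 and 11.3 FPKM in Sham. Every I-post C library was above every Sham library, with a log2FC of 1.26 ± 0.21 (SE, edgeR adjusted p = 0.179). Il1a had 42.8, 66.9 and 14.1 FPKM in I-post C, against 10.6, 5.91 and 3.28 FPKM in Sham. Il1r2, the decoy receptor that binds IL-1 without signalling, had 6.18, 5.50 and 42.9 FPKM in I-post C, against 1.31, 2.07 and 1.67 FPKM in Sham, with I-post C 3 far above the other 2 libraries of its group. Of the 14 listed genes of the IL-1 family and Il10, 4 had ranges apart upward (Il1a, Il1b, Il1r2 and the inflammasome gene Nlrp3) and 0 downward, and the median log2FC was 0.38, 0.16 without Sham 3 and 0.66 without Sham 1.

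Among NF-kB genes the kinase gene Map3k8, which acts upstream of ERK and NF-kB, had the smallest p. It had 19.0, 22.8 and 18.7 FPKM in I-post C, 34.3, 29.0 and 28.0 FPKM in IR and 10.6, 9.02 and 7.82 FPKM in Sham. The 3 groups did not overlap, and I-post C lay between the other groups. The log2FC was 1.08 ± 0.15 (SE) over Sham (edgeR adjusted p = 0.115) and -0.73 ± 0.15 (SE) over IR (edgeR adjusted p = 1). Birc3, an inhibitor of apoptosis that NF-kB induces, had 12.8, 15.8 and 7.74 FPKM in I-post C and 4.90, 4.04 and 2.33 FPKM in Sham. Nfkbia, the inhibitor that ends NF-kB signalling, had 216, 265 and 183 FPKM in I-post C, against 94.7, 105 and 167 FPKM in Sham, and I-post C 3 was close to Sham 3. Rel, an NF-kB subunit, had 3.97, 7.31 and 1.81 FPKM in I-post C and 1.73, 1.44 and 0.842 FPKM in Sham. Of the 19 genes of NF-kB factors, inhibitors and TNF, 17 had a log2FC above 0, 6 had ranges apart upward and 0 downward, and the median log2FC was 0.68. In 17 of the 19 the lowest I-post C library was I-post C 3.

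Early-response factors differed widely within the I-post C group, with I-post C 1 high and I-post C 3 near Sham. Nr4a1, an orphan nuclear receptor gene, had 236, 93.4 and 9.66 FPKM in I-post C, 60.7, 23.5 and 47.3 FPKM in IR and 7.56, 9.22 and 8.15 FPKM in Sham. The ranges were apart, with I-post C 3 barely above Sham. The log2FC was 3.68 ± 0.90 (SE, edgeR adjusted p = 0.454). Nr4a2 had 16.1, 11.7 and 3.34 FPKM in I-post C and 2.05, 1.78 and 1.87 FPKM in Sham, and Nr4a3 had 9.71, 6.25 and 0.424 FPKM in I-post C and 0.379, 0.322 and 0.0932 FPKM in Sham. Fos, a subunit of AP-1, had 85.0, 31.7 and 9.05 FPKM in I-post C, 28.1, 24.6 and 39.0 FPKM in IR and 4.18, 3.67 and 1.44 FPKM in Sham, a log2FC of 3.72 ± 0.75 (SE). Fosl2, a slower FOS relative, had 10.9, 8.00 and 6.23 FPKM in I-post C and 2.89, 1.69 and 1.83 FPKM in Sham and had the smallest p of the AP-1 list. Atf3, Fosb and Egr1 overlapped with Sham through I-post C 3. Atf3, a stress-induced repressor, had 135, 36.7 and 4.75 FPKM in I-post C, against 3.97, 5.37 and 5.37 FPKM in Sham. Egr1 had 212, 15.8 and 6.50 FPKM in I-post C, against 3.71, 6.83 and 1.25 FPKM in Sham. Sik1, a kinase gene induced by cAMP, had 81.7, 65.5 and 12.4 FPKM in I-post C and 8.27, 9.67 and 9.28 FPKM in Sham. Btg2, an antiproliferative early gene, had 422, 183 and 92.9 FPKM in I-post C and 71.7, 72.9 and 63.9 FPKM in Sham.

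Counted over the lists, I-post C 1 was the highest library of its group for 10 of 11 AP-1 and ATF3 factors and 13 of 15 EGR, NR4A, IER and other early genes, beside 28.4% of all genes tested. I-post C 3 was the lowest for 10 of 11 and 12 of 15, beside 43.9% of all genes. The median log2FC was 1.03 and 1.57, with ranges apart upward for 4 and 7 genes and downward for 0 and 0. Ier5l was the 1 early gene lower at an unadjusted p under 0.05, at 7.29 FPKM in Sham 3 and under 0.1 FPKM in the other 5 libraries. Without I-post C 3, edgeR called 8 genes higher and 0 lower, namely Sik1, Nr4a1, Nr4a2, Nr4a3, Apold1, Nfil3, Crem and Errfi1, and the medians were 1.28 and 2.05. Without I-post C 1 the medians were 0.64 and 0.87. Without Sham 3, the median of the AP-1 list was 1.81.

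The listed feedback inhibitors of the MAP kinase pathway, which these early factors depend on, had log2FC values above 0. I-post C 3 was most often the lowest library of its group. Errfi1, an inhibitor of the EGF receptor, had 257, 157 and 78.1 FPKM in I-post C, 203, 151 and 131 FPKM in IR and 37.7, 36.3 and 30.8 FPKM in Sham, a log2FC of 2.17 ± 0.37 (SE, edgeR adjusted p = 0.179). Dusp1, a phosphatase of p38 and JNK that glucocorticoids also induce, had 429, 392 and 144 FPKM in I-post C, against 73.0, 134 and 131 FPKM in Sham. Dusp5, a nuclear phosphatase of ERK, had 10.8, 13.3 and 4.48 FPKM in I-post C and 3.78, 4.30 and 4.31 FPKM in Sham. All 14 genes of the list had a log2FC above 0, with ranges apart upward for 6, and the median was 0.90. Dusp26, which shares the DUSP name, was not on the list and lay below Sham. Its log2FC was -1.84, and -1.33 without Sham 3. The lowest I-post C library was I-post C 3 for 10 of the 14, and the highest was I-post C 1 for 6 and I-post C 2 for 6.

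**Figure D3:**
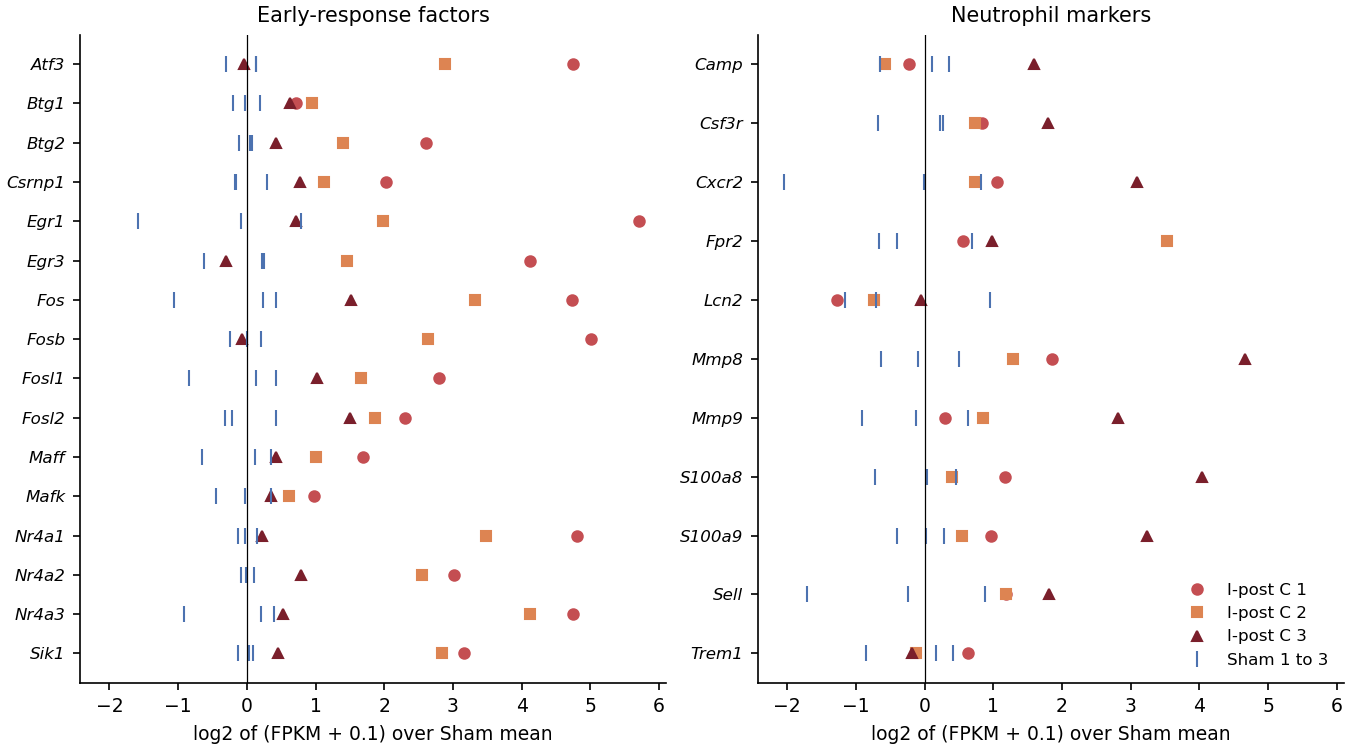
The x axis gives the log2 of FPKM (plus 0.1) over the Sham mean in each I-post C library (red and orange symbols) and each Sham library (blue ticks), for the AP-1, EGR, NR4A and IER genes higher at an unadjusted p under 0.05 (left) and for the 11 neutrophil markers (right). I-post C 1 is highest for nearly all early-response factors, whereas I-post C 3 is highest for 9 of the 11 neutrophil markers.

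Several genes that activated endothelium expresses lay above Sham. Apold1, an early gene of endothelial cells, had 72.7, 41.8 and 10.5 FPKM in I-post C, 134, 65.8 and 94.8 FPKM in IR and 1.69, 3.04 and 1.81 FPKM in Sham. Even the lowest I-post C library was above every Sham library. The log2FC was 4.16 ± 0.66 (SE) over Sham (edgeR adjusted p = 0.179) and -1.37 ± 0.59 (SE) over IR. Edn1, the precursor gene of the vasoconstrictor endothelin-1, had 81.8, 112 and 76.7 FPKM in I-post C and 26.6, 24.7 and 16.5 FPKM in Sham, a log2FC of 1.94 ± 0.33 (SE). Lrrc32, which encodes GARP, a surface anchor for latent TGF-beta, had 26.4, 22.7 and 19.3 FPKM in I-post C, 32.6, 44.7 and 25 FPKM in IR and 9.50, 9.81 and 8.87 FPKM in Sham. Of the 11 genes of endothelial activation and adhesion, 6 had ranges apart upward and 0 downward, and the median log2FC was 1.21 (0.74 without I-post C 1). Icam1 and Vcam1, the ligands that hold rolling leukocytes, overlapped with Sham, and Icam1 had 226, 159 and 91.4 FPKM in I-post C and 174, 176 and 156 FPKM in Sham. Vwf, the von Willebrand factor gene, lay the other way, at 71.3, 63.1 and 70.2 FPKM in I-post C and 94.2, 86.8 and 101 FPKM in Sham.

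Most regulators of vascular tone and permeability had ranges that overlapped with Sham. Nos2, the inducible nitric oxide synthase, had 1.17, 1.38 and 3.43 FPKM in I-post C, against 0.443, 0.280 and 0.337 FPKM in Sham, a log2FC of 2.45 ± 0.47 (SE, edgeR adjusted p = 0.216). S1pr1, the receptor through which sphingosine 1-phosphate tightens the endothelial barrier, had 198, 206 and 124 FPKM in I-post C, against 109, 98.2 and 94.7 FPKM in Sham. Agtr1a, the angiotensin II receptor gene, had 25, 26.6 and 34.3 FPKM in I-post C and 19.8, 15.8 and 12.1 FPKM in Sham. Of the 21 genes of this list, 4 had ranges apart upward, beside 5.56% of all genes, and 0 downward. The median log2FC was 0.19 (0.10 without Sham 2, 0.11 without Sham 3 and 0.45 without Sham 1).

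Of 11 clotting and fibrinolysis genes, 6 had ranges apart upward and 1 downward (Vwf), beside 5.56% and 4.08% of all genes. Plat, the tissue plasminogen activator that starts fibrinolysis, had 102, 167 and 141 FPKM in I-post C and 60.8, 54.7 and 72.7 FPKM in Sham. F3, tissue factor, had 216, 138 and 79.5 FPKM in I-post C, against 50.7, 63.7 and 61.2 FPKM in Sham, and Tfpi2, a protease inhibitor related to its natural inhibitor, had 4.23, 2.68 and 4.79 FPKM in I-post C and 0.808, 0.535 and 0.424 FPKM in Sham. The 11 genes had a median log2FC of 1.05 (0.70 without I-post C 1).

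Genes of matrix turnover lay above Sham, and several of them below IR. Adamts4 and Adamts1 encode secreted proteases that cut large proteoglycans. Adamts4 had 3.22, 1.94 and 1.83 FPKM in I-post C, against 0.173, 0.0748 and 0.116 FPKM in Sham, and Adamts1 had 105, 86.0 and 42.9 FPKM in I-post C, against 14.3, 17.3 and 8.87 FPKM in Sham. Their log2FC values were 4.21 ± 0.67 (SE) and 2.46 ± 0.41 (SE, edgeR adjusted p = 0.179 for both). Has1 and Has2 encode hyaluronan synthases, and Gfpt2 an enzyme that supplies their precursor. Has1 had 9.88, 3.75 and 2.23 FPKM in I-post C, 8.22, 17.9 and 18.0 FPKM in IR and 0.517, 0.476 and 0.700 FPKM in Sham. Gfpt2 had 11.9, 4.22 and 6.39 FPKM in I-post C, 21.3, 23.5 and 53.2 FPKM in IR and 2.09, 2.33 and 0.890 FPKM in Sham, so that the 3 groups did not overlap. The log2FC of Gfpt2 was 2.04 ± 0.55 (SE) over Sham and -2.30 ± 0.55 (SE) over IR (edgeR adjusted p = 0.554 and 1). Adamts9 was likewise between the groups, at 10.5, 11 and 11.2 FPKM in I-post C, 19.9, 22.8 and 16.2 FPKM in IR and 7.44, 8.06 and 5.27 FPKM in Sham. Of 16 matrix genes, 15 had a log2FC above 0 (median 0.65), and 8 had ranges apart upward and 0 downward. Of the 16, 6 were lower than IR at an unadjusted p under 0.05, beside 1.96% of all genes (302). Both the 8 and the 6 include Has2, with a mean of 0.257 FPKM in I-post C, 1.34 FPKM in IR and 0.0311 FPKM in Sham. Has2 passed the limit of 0.5 FPKM over all 9 libraries through its IR level. Its count as lower than IR is therefore partly set by that limit. No gene passed edgeR between I-post C and IR in either direction, and the smallest adjusted p there was 0.641.

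Enzymes of lipid mediator synthesis lay on both sides of Sham. Ptgs2, the inducible cyclooxygenase, had 3.17, 1.53 and 2.27 FPKM in I-post C, 6.05, 13.8 and 16.5 FPKM in IR and 1.51, 0.998 and 0.401 FPKM in Sham. Its log2FC was 1.25 ± 0.52 (SE) over Sham and -2.55 ± 0.54 (SE) over IR. Alox15, the 12/15-lipoxygenase gene, had 45.9, 33.6 and 37.7 FPKM in I-post C, 8.46, 11.5 and 28.4 FPKM in IR and 9.38, 9.39 and 10.2 FPKM in Sham, so that I-post C lay above both other groups. Its log2FC was 1.94 ± 0.46 (SE) over Sham and 1.08 ± 0.45 (SE) over IR (edgeR adjusted p = 0.399 and 1). Of 12 genes of prostaglandin and leukotriene synthesis, 3 had ranges apart upward and 1 downward, beside 5.56% and 4.08% of all genes. The median log2FC was -0.16 (-0.28 to -0.04 with any 1 library left out, the ends without Sham 1 and Sham 2).

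Most listed glucocorticoid-responsive, FOXO and clock genes had a log2FC above 0. Mt2A, a metallothionein that binds zinc and copper, had 70.3, 44.2 and 380 FPKM in I-post C, 120, 340 and 657 FPKM in IR and 3.71, 9.91 and 8.32 FPKM in Sham. The log2FC was 4.40 ± 1.01 (SE), with I-post C 3 well above the rest of its group. Irs2, an insulin receptor substrate that FOXO factors induce, had 19.0, 13.5 and 4.77 FPKM in I-post C and 4.69, 3.48 and 2.17 FPKM in Sham. Pck1, the gluconeogenic enzyme PEPCK and a target of both pathways, had 29.2, 32.8 and 1.53 FPKM in I-post C, 8.55, 2.88 and 11.7 FPKM in IR and 0.0934, 0.522 and 0.320 FPKM in Sham, and was named after its values were seen. Per1, a clock repressor that glucocorticoids induce, had 110, 93.2 and 44.1 FPKM in I-post C, against 34.3, 16.5 and 35.7 FPKM in Sham. Nfil3, a clock output repressor, had 39.1, 38.2 and 12.8 FPKM in I-post C and 6.39, 8.09 and 7.77 FPKM in Sham. Bhlhe40, another clock repressor, had 34.3, 34.2 and 18.8 FPKM in I-post C, 62.9, 49.4 and 62.0 FPKM in IR and 13.9, 10.5 and 5.53 FPKM in Sham, with no overlap between the 3 groups. Of 17 glucocorticoid and FOXO targets, 16 had a log2FC above 0 and 7 had ranges apart upward (median 0.73, and 0.23 without I-post C 3). Of 18 clock genes, 16 had a log2FC above 0 and 5 had ranges apart upward (median 0.46, and 0.29 without I-post C 3), and no gene of either list was apart downward.

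Amino acid transport and cell metabolism added a few genes above Sham. Slc7a1, a transporter of arginine and other cationic amino acids, had 5.68, 5.03 and 4.80 FPKM in I-post C and 2.57, 1.9 and 1.28 FPKM in Sham, a log2FC of 1.39 ± 0.25 (SE, edgeR adjusted p = 0.189). Slc7a5, a transporter of large neutral amino acids that ATF4 induces, had 16.8, 15.6 and 7.31 FPKM in I-post C and 4.80, 4.98 and 4.13 FPKM in Sham. Hk2, the hexokinase that hypoxia induces, had 4.25, 3.22 and 3.40 FPKM in I-post C, 5.11, 5.62 and 7.27 FPKM in IR and 3.04, 1.95 and 1.19 FPKM in Sham, and Vegfa, a classical hypoxia target, overlapped at 308, 319 and 257 FPKM in I-post C and 302, 252 and 219 FPKM in Sham. Of 15 genes of the integrated stress response, 3 had ranges apart upward and 1 downward, beside 5.56% and 4.08% of all genes. Their median log2FC was 0.25, and 0.06, 0.12 and 0.11 when I-post C 1, I-post C 2 or Sham 1 was left out. Of 17 hypoxia targets, 4 had ranges apart upward and 0 downward, beside the same shares. The median of the hypoxia targets was 0.14, 0.02 without I-post C 3 and 0.08 without Sham 2. Mt1, the second metallothionein, had 7.79, 5.21 and 31.0 FPKM in I-post C and 1.51, 0.790 and 4.38 FPKM in Sham.

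A few further genes from the 111 called by DESeq2 are given because no list held them, and were chosen after their values were seen. Rgs2, which dampens signalling from G protein-coupled receptors of vasoconstrictors, had 213, 141 and 126 FPKM in I-post C, 113, 113 and 107 FPKM in IR and 51.4, 51.2 and 66.8 FPKM in Sham, and I-post C lay above both other groups. Its log2FC was 1.42 ± 0.24 (SE, edgeR adjusted p = 0.179). Col4a1, a collagen of basement membranes, had 216, 254 and 293 FPKM in I-post C, 157, 182 and 200 FPKM in IR and 157, 87.5 and 102 FPKM in Sham. Il4r, a subunit of the receptors for IL-4 and IL-13, had 177, 181 and 149 FPKM in I-post C and 61.7, 62.9 and 81.6 FPKM in Sham, with a narrow spread in both groups. Sema7a, a membrane-anchored semaphorin, had 55.9, 57.5 and 78.8 FPKM in I-post C and 23.2, 15.1 and 26.5 FPKM in Sham. Crem, whose ICER isoforms cAMP induces, had 37.4, 45.1 and 11.5 FPKM in I-post C and 6.53, 7.14 and 5.42 FPKM in Sham, and Gem, a small GTPase, had 62.8, 35.2 and 10.4 FPKM in I-post C and 3.75, 6.54 and 2.14 FPKM in Sham.

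Interferon-induced genes overlapped between I-post C and Sham for 19 of 21 members. Ifit1 had 1.85, 22.2 and 14.7 FPKM in I-post C, against 0.723, 0.799 and 0.714 FPKM in Sham, and Ifit3 had 44.3, 29.3 and 16.0 FPKM in I-post C, against 14.8, 11.3 and 8.22 FPKM in Sham. Both belong to the IFIT family, which acts against viral RNA, and Ifit1 was unlike the rest of the list in being lowest in I-post C 1. The 2 genes with ranges apart lay above Sham, beside 5.56% of all genes. The median log2FC was 0.10, 0.36 without Sham 1 and -0.005 without I-post C 1, so no direction is given for the list. I-post C 1 was the highest library of its group for 19 of the 21 and I-post C 3 the lowest for 19, while Sham 1 was the highest Sham library for 18.

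Of the 7 genes that the study names, Cxcl6 and 5 others overlapped between I-post C and Sham. The study had chosen them on these samples, so their order is not independent evidence. Gimap4 and Gimap9 encode GTPases known from lymphocytes. Gimap4 had 41.2, 49.7 and 67.9 FPKM in I-post C, 26.8, 17.7 and 12.7 FPKM in IR and 84.0, 43.0 and 44.4 FPKM in Sham, and Gimap9 had 26.6, 31.1 and 58.8 FPKM in I-post C, 16.6, 14.5 and 9.14 FPKM in IR and 75.5, 31.2 and 37.4 FPKM in Sham. Their log2FC values over Sham were -0.13 ± 0.29 (SE) and -0.32 ± 0.36 (SE). Aplnr, the apelin receptor of endothelial cells, had 44.3, 38.9 and 44.6 FPKM in I-post C, 18.7, 15.6 and 12.2 FPKM in IR and 54.0, 30.7 and 38.0 FPKM in Sham, a log2FC of 0.02 ± 0.18 (SE) over Sham and 1.34 ± 0.19 (SE) over IR. Trim16, a ubiquitin ligase gene of the stress response, had 2.46, 1.40 and 2.43 FPKM in I-post C, 7.65, 5.94 and 6.62 FPKM in IR and 1.98, 2.09 and 0.699 FPKM in Sham. Nrm, a nuclear envelope protein gene, had 6.20, 8.61 and 8.92 FPKM in I-post C, 4.15, 3.32 and 2.87 FPKM in IR and 7.57, 8.04 and 12.6 FPKM in Sham. For Gimap4, Gimap9, Aplnr and Nrm all I-post C libraries lay above all IR libraries, beside 11.2% of all genes. For Trim16 all lay below IR, beside 2.59% of all genes. Trim13, a ubiquitin ligase of the endoplasmic reticulum, lay between the groups, at 6.16, 7.91 and 12.3 FPKM in I-post C, 4.92, 3.39 and 3.92 FPKM in IR and 16.5, 16.7 and 16.6 FPKM in Sham. Its log2FC was -0.98 ± 0.30 (SE) over Sham and 0.98 ± 0.30 (SE) over IR (edgeR adjusted p = 0.628 and 1).

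Markers of neutrophils and red blood cells had log2FC values mostly above 0. Of 11 neutrophil markers tested, 10 had a log2FC above 0 and 4 had ranges apart upward, beside 47.2% and 5.56% of all genes. S100a9, a subunit of the calprotectin complex of neutrophils, had 138, 103 and 666 FPKM in I-post C and 53.7, 86.5 and 72.0 FPKM in Sham, and S100a8, its partner, had 62.8, 37.0 and 462 FPKM in I-post C and 16.9, 38.4 and 28.6 FPKM in Sham. The collagenase gene Mmp8, stored in neutrophil granules, had 10.1, 6.77 and 71.7 FPKM in I-post C and 2.53, 3.90 and 1.72 FPKM in Sham. The summed level of the 11 markers was 338, 301 and 1444 FPKM in I-post C, 619, 1212 and 614 FPKM in IR and 420, 264 and 205 FPKM in Sham, so that I-post C 1 and I-post C 2 lay within the Sham range. The median log2FC was 1.88, and 0.72 without I-post C 3. The part of neutrophils in the chemokine, Il1r2 and metallothionein values above was not tested.

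All 5 red blood cell markers had ranges apart upward, with a median log2FC of 1.27. The alpha-globin gene Hba-a2 had 4760, 3839 and 4162 FPKM in I-post C, against 1396, 779 and 2811 FPKM in Sham, and reads of its near-identical copy Hba-a1 may be split between the entries. Alas2, the first enzyme of heme synthesis in red cell precursors, had 58.8, 38.9 and 51.7 FPKM in I-post C, 15.2, 38.9 and 52.8 FPKM in IR and 20.1, 12.6 and 19.1 FPKM in Sham. The summed level was 20271, 15959 and 18320 FPKM in I-post C, 5713, 17500.5 and 21339 FPKM in IR and 7191, 4669 and 12646 FPKM in Sham. Hemgn, Kel, Slc4a1 and Rhd, other genes of red cells and their precursors, were among the 111 genes that DESeq2 called and were named after their values were seen. Hemgn had 2.75, 2.80 and 2.83 FPKM in I-post C and 0.480, 0.125 and 0.381 FPKM in Sham, and Slc4a1, the anion exchanger of the red cell membrane, had 4.92, 3.89 and 3.20 FPKM in I-post C and 1.21, 0.549 and 0.246 FPKM in Sham. Whether these values stem from blood retained in the lung was not tested.

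B cell markers other than Fcrl2 overlapped with Sham for 5 of 6 genes. Ms4a1, which encodes CD20, was the other gene above Sham, at 9.98, 32.6 and 8.67 FPKM in I-post C and 6.02, 7.90 and 4.51 FPKM in Sham. Cd79a, part of the B cell receptor, had 24.5, 61.5 and 13.9 FPKM in I-post C and 18.7, 16.6 and 24.6 FPKM in Sham. I-post C 2 was the highest library of its group for all 7 B cell markers, and the list's median log2FC was 0.79, and 0.20 without I-post C 2. Fcrl2 differed from them in that all 3 I-post C libraries were above all Sham libraries with a wide gap. The cell type that Fcrl2 transcripts came from was not tested. The summed level of the 7 markers was 75.0, 183 and 42.7 FPKM in I-post C, 81.2, 23.6 and 16.5 FPKM in IR and 46.7, 51.1 and 60.6 FPKM in Sham. Klre1, a receptor gene of natural killer cells, had 6.86, 8.91 and 4.39 FPKM in I-post C, 1.65, 1.94 and 1.20 FPKM in IR and 4.55, 2.66 and 2.66 FPKM in Sham. Its log2FC was 0.98 ± 0.37 (SE) over Sham, where ranges overlapped, and 1.93 ± 0.38 (SE) over IR, where they did not. Macrophage markers had a median log2FC of 0.15 (0.07 to 0.17 with any 1 library left out), with 0 of 10 apart.

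The 12 genes below Sham with the smallest p, ranges apart and a log2FC of -1 or less came from several gene families. RT1-T24-1, a nonclassical MHC class I gene, had the smallest p of them. Its level was 13.9, 11.9 and 10.2 FPKM in I-post C, against 34.3, 21.6 and 25 FPKM in Sham, a log2FC of -1.21 ± 0.22 (SE, edgeR adjusted p = 0.189), and it belongs to a multigene family whose members can share reads. Cebpa, a transcription factor of alveolar type 2 and myeloid cells, had 15.6, 18.3 and 19.7 FPKM in I-post C and 27.2, 30.6 and 50.1 FPKM in Sham. Gjb1, the gap junction gene of connexin 32, had 3.12, 4.40 and 2.88 FPKM in I-post C and 8.34, 5.68 and 11 FPKM in Sham. Cldn15, a claudin that forms cation pores in tight junctions, had 8.22, 6.38 and 4.10 FPKM in I-post C and 13.2, 30.6 and 13.8 FPKM in Sham. Their log2FC values were -1.10 ± 0.29 (SE), -1.34 ± 0.37 (SE) and -1.72 ± 0.44 (SE), with edgeR adjusted p between 0.509 and 0.554. Prr15 had 5.49, 4.77 and 2.97 FPKM in I-post C and 9.01, 12.2 and 10.1 FPKM in Sham, and Exph5, an effector of vesicle secretion, had 1.03, 1.17 and 0.730 FPKM in I-post C and 7.09, 3.37 and 1.95 FPKM in Sham. Bnc1, a zinc finger factor of mesothelium and stratified epithelium, had 0.0693, 0.274 and 0.0229 FPKM in I-post C and 1.19, 2.15 and 0.473 FPKM in Sham. The remaining genes of the rule were Rps27a, Syndig1, Ebpl, Dusp26 and Sdf2l1, with log2FC values between -2.33 and -1.31. Without Sham 3 that of Sdf2l1 was -1.26, against -2.33 with it, and that of Ebpl was -0.98, against -1.70 with it. Those of Cebpa, Gjb1 and Dusp26 were -0.73, -1.02 and -1.33 without Sham 3, against -1.10, -1.34 and -1.84 with it. Those of Exph5, Bnc1 and Cldn15 were further from 0 without it, at -2.41, -3.85 and -1.89. Rps27a has 2 entries. The one on chromosome 14 had 218, 197 and 351 FPKM in I-post C and 493, 904 and 1006 FPKM in Sham, and the one on chromosome 5 had 400, 515 and 394 FPKM in I-post C and 154, 184 and 168 FPKM in Sham, in the other direction, so neither is certain.

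Most ribosomal protein genes and nuclear genes of oxidative phosphorylation had a log2FC a little below 0, and less so without Sham 3. Of 82 ribosomal protein genes, 78 had a log2FC below 0 (median -0.50), and of 86 nuclear genes of oxidative phosphorylation 83 did (median -0.50). Ranges were apart downward for 3 and 3 of them, beside 4.08% of all genes. Sham 3 was the highest Sham library for 73 of the 82 and 73 of the 86, and Sham 1 the lowest for 68 and 65. Against Sham 1 and Sham 2 alone, all I-post C libraries lay above for 8 and 9 genes and below for 3 and 6. The shares of all genes were 9.49% above and 8.5% below. Rplp1, a protein of the ribosomal stalk, had 281, 265 and 265 FPKM in I-post C and 497, 340 and 1953 FPKM in Sham, and Cox8a, a subunit of cytochrome c oxidase, had 18.7, 20.9 and 23.6 FPKM in I-post C and 14.6, 39.9 and 210 FPKM in Sham. Without Sham 3 the medians were -0.21 and -0.13, and without Sham 1 they were -0.81 and -0.78. Genes of the mitochondrial genome are a separate set, and their share of counts was 4.84, 4.19 and 5.96% in I-post C and 4.45, 5.80 and 3.03% in Sham, with overlap. Proteasome genes had a median of -0.25 (39 of 45 below 0), -0.03 without Sham 3 and -0.47 without Sham 1.

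Some genes had a large negative log2FC through Sham 3 alone. Klf2, a transcription factor that flow induces in endothelium, had 2.44, 2.94 and 6.65 FPKM in I-post C and 8.89, 0.512 and 209 FPKM in Sham, a log2FC of -4.33 ± 1.70 (SE) that was -0.13 without Sham 3. Id1, an inhibitor of helix-loop-helix factors that BMP signals induce, had 19.0, 20.8 and 42.6 FPKM in I-post C and 20.1, 29.5 and 428 FPKM in Sham, a log2FC of -2.68 ± 1.08 (SE) that was 0.11 without Sham 3. Hspb1, a small heat shock protein gene, had 39.4, 47.1 and 35.6 FPKM in I-post C and 30.9, 60.0 and 391 FPKM in Sham. Cebpd, a factor of the IL-6 response, had 8.39, 7.5 and 6.01 FPKM in I-post C and 2.87, 2.05 and 165 FPKM in Sham, so that I-post C lay above Sham 1 and Sham 2 and far below Sham 3. For Klf2, Id1 and Hspb1 the ranges of I-post C and of Sham 1 and Sham 2 overlapped.

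Genes of antioxidant enzymes and chaperones had log2FC values mostly below 0. Of 14 superoxide dismutases, catalase and peroxidases, 13 had a log2FC below 0 (median -0.35, -0.10 without Sham 3 and -0.59 without Sham 1). Gpx1, the main glutathione peroxidase of the cytosol, had 199, 202 and 178 FPKM in I-post C and 185, 314 and 562 FPKM in Sham. Of 14 heat shock and chaperone genes, 12 were below 0 (median -0.38, and -0.15 without Sham 3). Ranges were apart downward for 3, beside 4.08% of all genes. Hsp90ab1, a constitutive chaperone, had 367, 471 and 388 FPKM in I-post C and 499, 545 and 602 FPKM in Sham, and its cochaperone Dnaja1 had 94.2, 104 and 81.7 FPKM in I-post C and 136, 116 and 111 FPKM in Sham.

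Alveolar epithelial markers also had log2FC values mostly below 0. Of 10 type 2 cell markers, 9 had a log2FC below 0 and 2 had ranges apart downward, with a median of -0.25. Lpcat1, an enzyme that makes surfactant phospholipid, had 62.1, 64.0 and 69.5 FPKM in I-post C, 64.5, 50.0 and 45.6 FPKM in IR and 108, 88.8 and 81.1 FPKM in Sham, a log2FC of -0.56 ± 0.15 (SE, edgeR adjusted p = 0.554). Slc34a2, the phosphate transporter of type 2 cells, had 435, 332 and 439 FPKM in I-post C and 578, 574 and 456 FPKM in Sham. All 8 type 1 cell markers were below 0 (median -0.29). Aqp5, the water channel of type 1 cells, had 283, 257 and 160 FPKM in I-post C and 288, 305 and 545 FPKM in Sham. Without Sham 3 the medians were -0.40 and -0.38. That of the type 2 list was likewise -0.40 without Sham 1, and that of the type 1 list was -0.18 without I-post C 3 and -0.48 without Sham 2. The endothelial marker list had a median of -0.31, which was 0.13 without Sham 3 and above 0 in the fits on FPKM, so no direction is given for it.

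**Figure D4:**
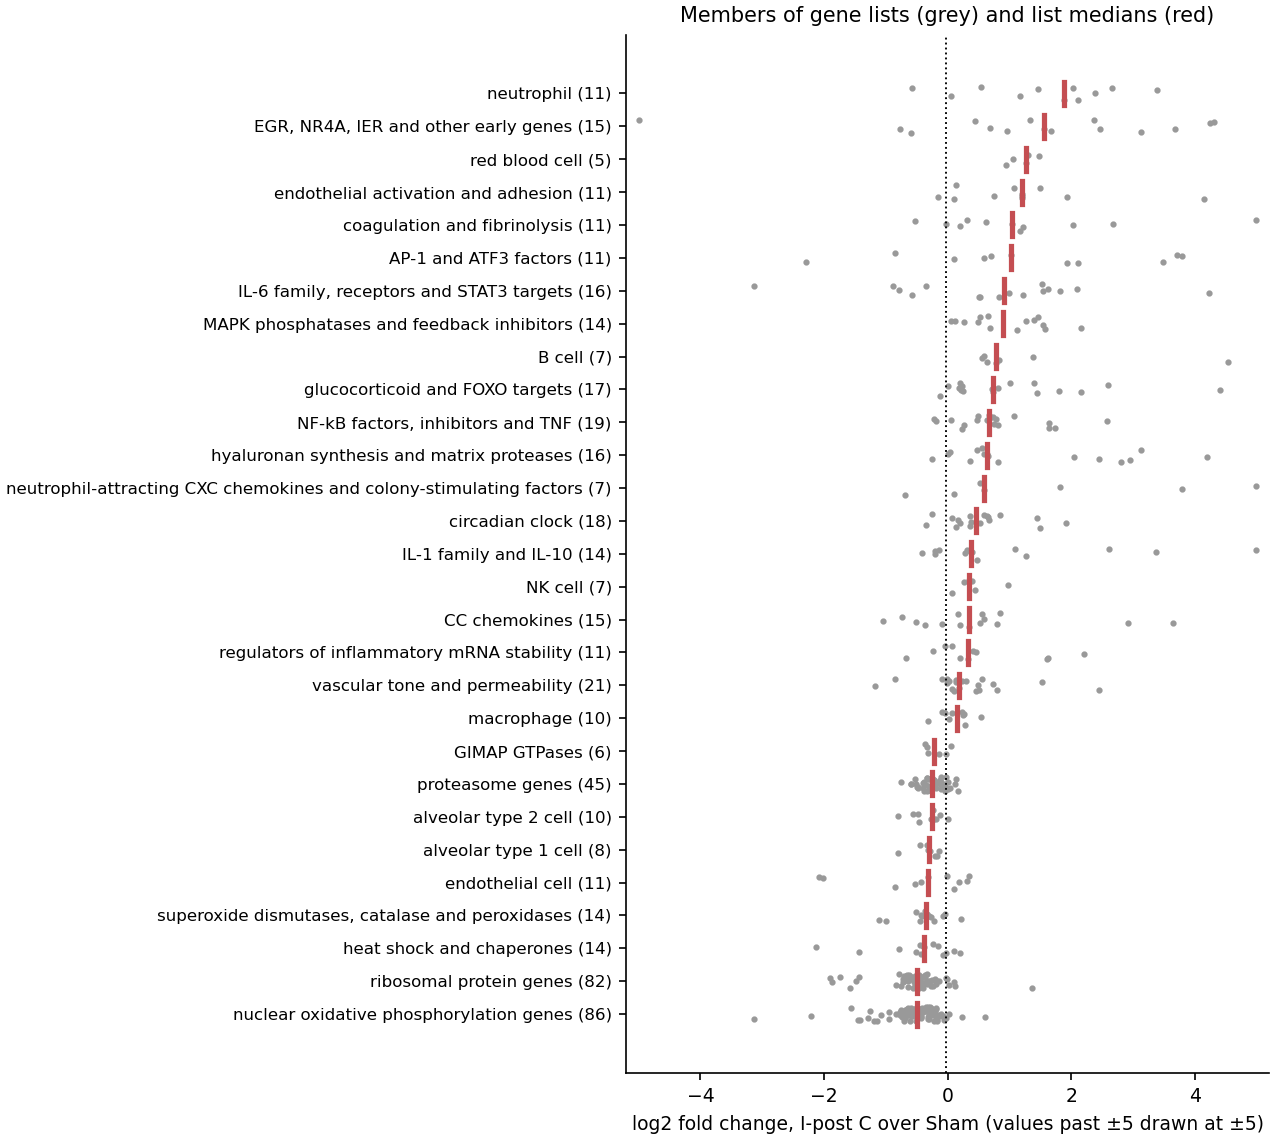
Log2 fold changes of I-post C over Sham for the members of 29 gene lists (grey points, number of genes tested in brackets, values past the axis drawn at its ends) with list medians in red; the dotted line is the median of all genes, -0.03. Of these lists, neutrophil markers and early genes have the highest medians, 1.88 and 1.57, and nuclear oxidative phosphorylation and ribosomal protein genes the lowest, -0.50 each.

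**Figure D5:**
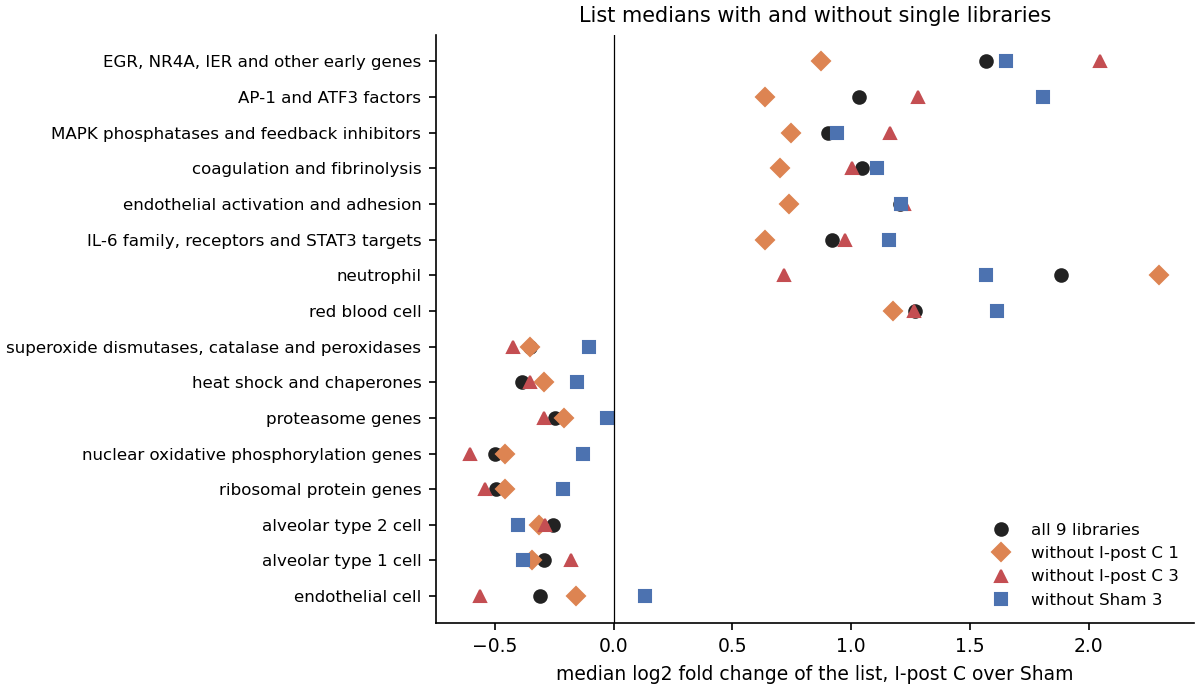
Median log2 fold change of I-post C over Sham for 16 lists in the fit of all 9 libraries (black circles), without I-post C 1 (orange diamonds), without I-post C 3 (red triangles) and without Sham 3 (blue squares). The medians of the 2 early gene lists are higher without I-post C 3 and lower without I-post C 1 (0.64 for the AP-1 list and 0.87 for the other). That of the neutrophil markers is 0.72 without I-post C 3, and the ribosomal and oxidative phosphorylation medians are nearer to 0 without Sham 3.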

How the data were processed

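Rat lung tissue was sequenced as poly(A) RNA, with 3 libraries in each of the I-post C, IR and Sham groups. The authors deposited 1 table of read counts and FPKM values per gene on the rn6 build. The submitters' processing notes name cutadapt 1.9, HISAT2 2.2.1 and StringTie 2.1.6. The sources used here do not say how the counts were made or whether they used strand. The deposited counts sum to more than the mapped reads the authors state, so no counting interval is given.

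The 15402 genes with a mean of at least 0.5 FPKM entered edgeR 4.0.16 (R 4.3.3, quasi-likelihood test, TMM, all 9 libraries, Benjamini-Hochberg adjustment). Calls needed a log2FC of 1 or more in either direction and an adjusted p under 0.05. The unit of the levels is the deposited FPKM. Genes whose symbol is shared by other entries (945 entries) are shown as the most abundant entry.

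Alternatives were RLE size factors, DESeq2 1.42.0, limma 3.58.1 on log2(FPKM + 0.5) with pseudocounts of 0.1 and 1, other filters, a replicate block and each library left out. The scripts were tested on simulated data. Promoters and plots used Python 3.11.15, pandas 2.3.3 and matplotlib 3.10.9.

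The text names the 12 genes in each direction with ranges apart, a log2FC of 1 or more in size, a mean of at least 1 FPKM in a group, a symbol that is no clone or locus number and the smallest p, up to 3 genes of a list with the smallest p and 7 genes named by the study. A gene that the rule for lists would name is not reported here. Others were named after their values were seen. The genes and lists were chosen with earlier results of these data known.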

Additional observations from a re-analysis of the deposited data

How the results depend on the processing

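edgeR called 0 genes in either direction with RLE size factors, on the 6 libraries alone, without a filter, with a minimum of 2 FPKM and without a limit on log2FC. DESeq2 called 111 higher and 16 lower on 9 libraries, and 95 and 13 on 6. limma called 1 higher with each of the 3 pseudocounts (Pfkfb3) and 0 lower. With 1 library left out, edgeR called 0 to 8 genes higher and 0 lower. The 8 came without I-post C 3, and 2 (Depp1 and AABR07044362.1) without IR 3. Without Sham 3 and IR 3 together, an alternative chosen after seeing the data, edgeR called 2 higher and 0 lower. The DESeq2 count of genes higher ranged over 69 to 773 and that of genes lower over 7 to 417 with 1 library left out, and both maxima came without Sham 1. All 3 I-post C libraries were above Sham 1 and Sham 2 for 1462 genes and below them for 1309. Of 116 genes with a value in the text, 109 kept the sign of their log2FC in all settings, and 43 moved by over 1.5-fold in at least 1. The log2FC values that turned in sign with 1 library left out were those of Gimap4 (-0.38 to 0.12), Gimap9 (-0.78 to 0.027), Aplnr (-0.13 to 0.15), Cd79a (-0.11 to 0.999), Icam1 (-0.51 to 0.11), Cebpd (-3.71 to 1.55, and 1.56 without Sham 3 and IR 3) and Id1 (-3.22 to 0.11, and 0.11 without Sham 3 and IR 3). The cause was not tested.

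The replicate numbers are shared between groups, and the labels do not say that they pair the samples. The correlation of same-numbered deviations of I-post C and Sham libraries from their group means was 0.107, -0.048 and 0.231. For different-numbered libraries it ran from -0.232 to 0.177. With 3 libraries per group these values cannot decide whether the samples were paired. With a replicate block, edgeR called 0 genes higher and 0 lower, with a smallest adjusted p of 0.263 and 645 genes higher and 342 lower at an unadjusted p under 0.05. With 3 libraries per group and a median SE of 0.34 on the log2 scale, small differences were not detectable.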
